A study of Rattus norvegicus with 2 samples.

Results

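The miR-379 to miR-410 cluster is a row of miRNA hairpins in the imprinted Dlk1-Dio3 region, which lies on chromosome 6 of the rat. Its members were taken from the deposited table by name, as every rat miRNA, of either arm and with any letter, that carries one of the numbers of this cluster. The rule found 42 mature miRNAs among the 390 of the table, from 29 of the 33 hairpins of these numbers in the RefSeq table used here (build GRCr8). The rule uses names only. The counts came from 2 small RNA libraries of the hippocampus of Wistar rats aged 5 months. The experimental group had status epilepticus (SE), a seizure that does not end by itself, induced by 20 min of electrical stimulation of the lateral nucleus of the right amygdala, and was sampled 24 hours later. By the methods, stimulation was resumed in animals that did not meet the criteria of SE after these 20 min. The control group was sham stimulated and had the same electrode surgery. RNA was taken from the left hippocampus, opposite to the electrode, after perfusion with saline, and was pooled within each group, so that there was 1 library per group and no measure of the spread between animals. The methods give 6 rats per group and time point, and do not state how many of them entered each pool.

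In the deposited table the counts summed to 5678090 in the experimental library and 6703056 in the control library. Values are given as read counts and as counts per 1000000 clean reads (CPM), for which the clean reads stated in the paper served as depth. A single count was worth 0.138 CPM in the experimental library and 0.114 CPM in the control library. The log2 ratio is that of the experimental CPM over the control CPM, with a 95% exact Clopper-Pearson interval, given in brackets, that covers counting error only. A Fisher's exact test on these reads compares the 2 libraries, not SE with control. As a check of the tissue, 18 arms of neuronal miRNAs (the families of miR-124, miR-128, miR-129, miR-132, miR-137, miR-138, miR-212 and miR-218) summed to 38857 CPM in the experimental library and 46205 in the control library, and 4 arms of muscle miRNAs to 247 and 267 CPM.

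MiRNAs are short RNAs that guide Argonaute proteins to messenger RNAs, mostly through the seed, the bases 2 to 8 from their 5′ end. A hairpin is cut into a 5p and a 3p arm, of which usually only 1 is kept in quantity. The hairpins of the miR-379 to miR-410 cluster are expressed from the maternal chromosome as parts of long noncoding transcripts, with the brain as a main site in the adult. In neurons the transcription of the cluster is known to respond to activity through the factor Mef2. MiR-134 is known to limit the size of dendritic spines through the kinase Limk1, miR-329 and miR-381 to take part in dendrite growth, and miR-485 to act on the synaptic vesicle protein SV2A. In the GRCr8 annotation 2 lncRNA genes span the members, LOC102555254 with 13 hairpins from Mir379 to Mir376b and LOC120103623 with 16 hairpins from Mir376a to Mir410.

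All 42 members were matched by name to mature sequences of RefSeq (GRCr8, plus strand of chromosome 6). The sequences below are the 5 members that were higher in the experimental library under every scaling, printed 5′ to 3′ with the seed in capitals.
miR-668: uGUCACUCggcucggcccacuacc
miR-134-5p: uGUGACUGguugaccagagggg
miR-539-5p: gGAGAAAUuauccuuggugugu
miR-666-5p: aGCGGGCAcggcugugagag
miR-541-5p: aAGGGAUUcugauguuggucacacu
They had 5 different seeds. The next set holds the most abundant member, both arms of Mir369 and further members that were lower in the experimental library, with the seed in capitals.
miR-485-5p: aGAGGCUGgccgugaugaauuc
miR-323-3p: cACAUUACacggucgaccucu
miR-376a-3p: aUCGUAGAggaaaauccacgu
miR-369-5p: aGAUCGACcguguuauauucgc
miR-369-3p: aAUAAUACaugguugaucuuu
miR-380-3p: uAUGUAGUaugguccacaucu
miR-496-3p: aGUAUUACauggccaaucucc
Of the 42 members counted here, 0 shared its seed with another of the 42. Among rat miRNAs that were not counted as members here, the seed of miR-329-3p is also that of miR-362-3p. The seed of miR-410-3p is that of miR-344b-1-3p, and the seed of miR-376c-3p that of miR-741-5p. Other arms of cluster hairpins shared seeds as well. The seed of miR-539-3p is that of miR-381-3p, the other arm of the member miR-381-5p. The seed of miR-376b-5p is that of miR-376c-5p, the other arm of the member miR-376c-3p.

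The members covered a wide range of levels, from 6 counts to 7053 counts in a library. MiR-485-5p had 6760 counts (933 CPM) in the experimental library and 7053 counts (807 CPM) in the control library and ranked 35 in the table by mean CPM. MiR-323-3p followed with 4563 counts (630 CPM) and 6603 counts (756 CPM) and ranked 42. The 2 of them held 38.1% of the counts of the cluster in the experimental library and 37.2% in the control library.

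The other abundant members were miR-382-5p (375 and 368 CPM in the experimental and the control library), miR-543-3p (2449 and 2700 counts), miR-376a-3p (229 and 296 CPM), miR-329-3p (208 and 235 CPM), miR-495 (221 and 229 CPM), miR-485-3p (188 and 208 CPM), miR-323-5p (164 and 174 CPM) and miR-487b-3p (114 and 131 CPM). The 10 most abundant members together made up 82.8% of the counts of the cluster in the experimental library and 83.6% in the control library, so that the sum of the cluster mostly reflects them. At the other end, 8 members stayed under 30 counts in both libraries, and all 8 of their intervals held 0. None of the 42 members was at 0 counts in either library.

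**Figure D1:**
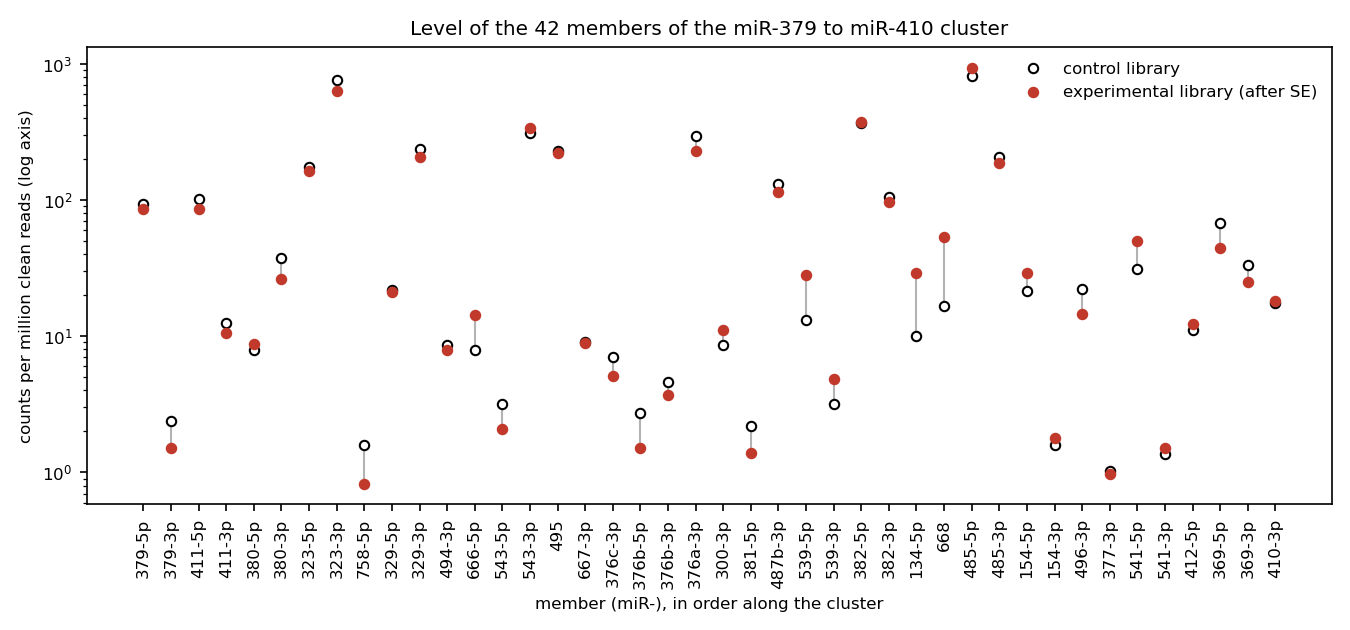
Level of each of the 42 members in counts per 1000000 clean reads (log axis), in order along the cluster, with 1 open point for the control library and 1 filled point for the experimental library. MiR-485-5p and miR-323-3p lie highest, and the pairs of points lie farthest apart for miR-668 (16.6 and 53.3 CPM) and miR-134-5p (10.1 and 28.9 CPM) among the members with at least 30 counts.

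As a whole the cluster took almost the same share of both libraries. Its 42 members summed to 29746 counts in the experimental library, 0.411% of the clean reads (95% exact Clopper-Pearson interval 0.406 to 0.415), and to 36729 counts in the control library, 0.420% (0.416 to 0.425). The log2 ratio of the sums was -0.033 (-0.056 to -0.011), and without miR-485-5p it was -0.098 (-0.12 to -0.073). A lower level in the whole hippocampus does not tell fewer cells that express the cluster from less RNA in each cell.

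Beneath this sum the members went in different directions. Of the 34 members with at least 30 counts in either library, 8 had an interval wholly above 0 and 10 wholly below 0, against 40.4% and 22.8% of the 285 miRNAs of the table with this minimum. An adjusted p under 0.05 (Fisher's exact test, Benjamini-Hochberg over the table) was found for 8 higher and 10 lower members, against 38.6% and 21.4% of the table. The members' median log2 ratio was -0.065, with quartiles of -0.26 and 0.19, and the median of the table was 0.10, with quartiles of -0.22 and 0.54.

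These directions depend on the scaling, because each alternative lowers every log2 ratio by the same amount. The shift was -0.031 with the sums of the table, where 8 members lay above 0 and 11 below, against 38.2% and 24.2% of the table. It was -0.090 with DESeq2's size factors, -0.18 with edgeR's TMM and -0.27 with the counts as deposited (unscaled copies). With TMM 5 members lay above 0 and 17 below, against 28.4% and 35.1% of the table, and with unscaled copies 5 lay above and 19 below, against 23.2% and 41.1% of the table. The distance of the cluster's median from that of the table, -0.17, is the same under any scaling, and 12 members lay above the median of the table and 22 below it.

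Members were therefore grouped by what held under each of the 5 scalings and also with the median of the table set to 0. The interval lay above 0 throughout for 5 members (23.2% of the table) and below 0 throughout for 10 (22.8% of the table). For the lower members this added no condition, because each alternative lowers every ratio. They are the same 10 that lay below 0 with the clean reads. The 5 higher members held 1265 counts in the experimental library, 4.25% of the counts of the cluster, and 691 counts in the control library, 1.88%. The 10 lower members held 11331 counts, 38.1% of the cluster, and 16506 counts, 44.9%.

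**Figure D2:**
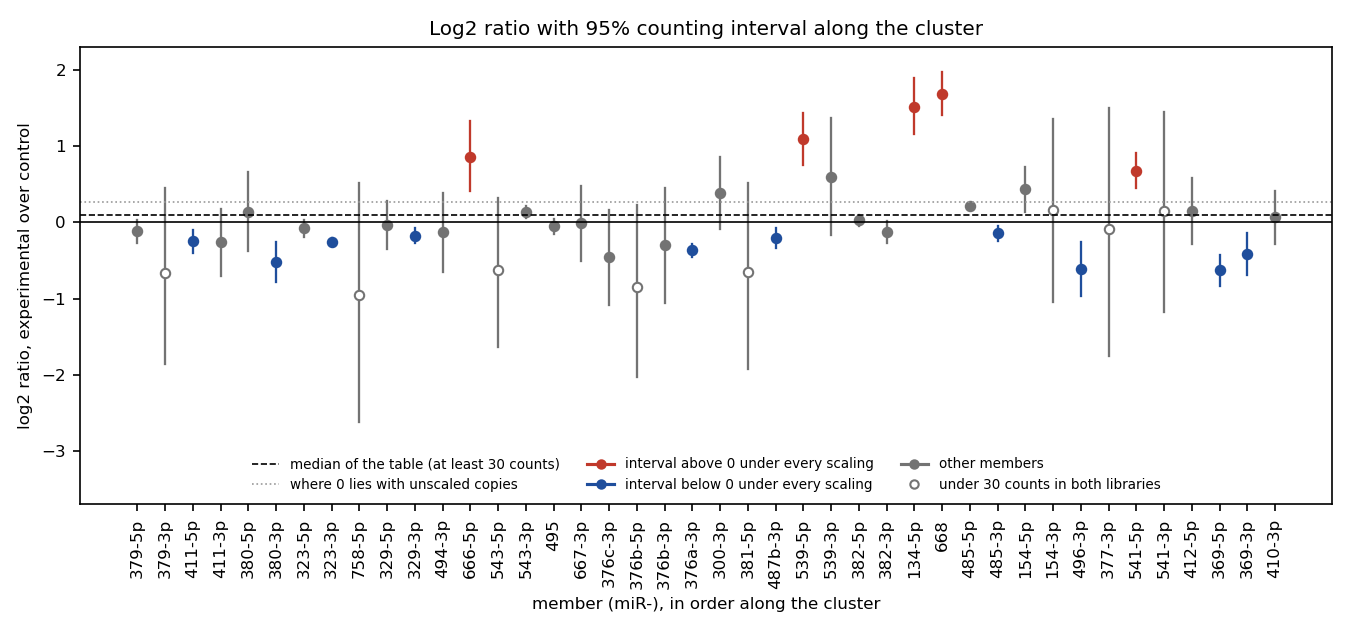
Log2 ratio of experimental over control for the 42 members in order along the cluster, with 95% counting intervals as vertical lines, the median of the table (0.10) as a dashed line and the position of 0 with unscaled copies as a dotted line. The 5 red members lie above 0 under every scaling, with miR-134-5p and miR-668 side by side at 1.52 and 1.68, and the 10 blue members lie below 0 under every scaling, from -0.15 to -0.63.

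MiR-668 had 386 counts in the experimental library and 145 in the control library, a 3.21-fold higher level (2.65 to 3.91) or 1.68 on the log2 scale (1.40 to 1.97; Fisher's exact test, adjusted p = 3.05e-36). MiR-134-5p, the arm of Mir134 known for its role in dendritic spines, had 209 and 88 counts, a 2.87-fold higher level (2.22 to 3.72) or 1.52 on the log2 scale (1.15 to 1.89; Fisher's exact test, adjusted p = 2.4e-17). The lowest log2 ratio that any of the scalings gave was 1.41 for miR-668 and 1.25 for miR-134-5p. Their intervals overlapped, so that no difference between the pair was detectable at this depth.

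MiR-539-5p had 203 counts in the experimental library and 115 in the control library, 2.13-fold higher (1.69 to 2.70; Fisher's exact test, adjusted p = 2.08e-10). These were the 3 members with a log2 ratio above 1, against 10.2% of the table, and 0 members had one below -1, against 2.11% of the table. With unscaled copies the value of miR-539-5p was 0.82, and with TMM or unscaled copies 2 members were above 1. A log2 ratio beyond 2 in size with p under 0.01 was found for 0 of the 34 members, against 3.16% of the table as higher and 1.05% as lower. These are limits of the study's own screen, whose further condition that p not be 0 was not applied.

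MiR-666-5p had 104 and 69 counts, a 1.82-fold higher level (1.33 to 2.50). MiR-541-5p had 363 and 274 counts, higher by 0.68 on the log2 scale (0.45 to 0.91). All 5 higher members were of low or middle abundance, with 7.90 to 31.4 CPM in the control library, against 22.3 to 756 CPM for the 10 lower members. Intervals narrow as counts rise, so that a small ratio can leave out 0 only in an abundant member. Over the 34 members with at least 30 counts, level and log2 ratio had a Spearman rho of -0.13 and a Pearson r of -0.19. Another 3 members, miR-154-5p (210 and 188 counts, log2 ratio 0.43), miR-485-5p (0.21) and miR-543-3p (0.13), lay above 0 with the clean reads but not under every scaling.

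Spread between animals or pools was not measured. A coefficient of variation of 0.2 between libraries, each of them a pool, was therefore assumed in the exact test of edgeR, where p was 0.000157 for miR-668, 0.000961 for miR-134-5p and 0.0148 for miR-539-5p, and these 3 were the members under 0.05, against 15.1% of the table. With a coefficient of 0.4 in place of it, the p-values were 0.0528, 0.0836 and 0.21, and 0 members were under 0.05, against 4.91% of the table.

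The 10 lower members lay between -0.63 and -0.15 on the log2 scale with the clean reads, and lower by the shifts given above under the other scalings. MiR-369-5p had 319 counts in the experimental library and 595 in the control library, the lowest ratio among members with at least 30 counts at -0.63 on the log2 scale (-0.83 to -0.43). MiR-496-3p followed at -0.61 (-0.96 to -0.26), from 106 and 195 counts. MiR-369-5p was the more abundant of the pair, with 44.1 and 68.1 CPM. For miR-380-3p, with 191 and 330 counts, the ratio was -0.52 (-0.78 to -0.26). MiR-369-3p, with 181 and 290 counts, was at -0.41 (-0.69 to -0.14), so that both arms of Mir369 were lower.

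Abundant members were among the lower ones too. MiR-376a-3p was at -0.37 on the log2 scale (-0.46 to -0.28), from 1661 and 2587 counts, and miR-323-3p, with 4563 and 6603 counts, was at -0.26 (-0.32 to -0.21). The remaining 4 were miR-411-5p (618 and 886 counts, log2 ratio -0.25), miR-487b-3p (822 and 1148 counts, -0.21), miR-329-3p (1509 and 2055 counts, -0.17) and miR-485-3p (1361 and 1817 counts, -0.15). In linear terms the 10 lower members lay at 0.647 (miR-369-5p) to 0.904 (miR-485-3p) of their control level.

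The members known from work on neuronal activity and dendrites did not share a direction. MiR-134-5p was higher as given above. Both arms of Mir329 had log2 ratios below 0, -0.17 for miR-329-3p (-0.27 to -0.078) and -0.040 for miR-329-5p (21.3 and 21.9 CPM, interval -0.36 to 0.27). MiR-485-5p was at 0.21 by the clean reads and above 0 under each scaling but unscaled copies. The lowest of these values was 0.030 with TMM, with an interval that held 0 (-0.018 to 0.078). With unscaled copies, which do not correct for depth, it was -0.061. Of Mir381 only the 5p arm was analysed here, with 10 counts in the experimental library and 19 in the control library, too few to detect a change of its size (log2 ratio -0.66, interval -1.92 to 0.52).

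The order along the cluster, taken from RefSeq, was compared with the ratios. With the arms of each hairpin summed, 11 of the 28 pairs of neighbouring hairpins differed in their ratios (hairpin by library, Fisher's exact test, adjusted p under 0.05 over the 28 pairs), a comparison that does not depend on the scaling. The median size of the difference between neighbours was 0.57 on the log2 scale. By unadjusted p under 0.05, 12 of the 28 neighbouring pairs (42.9%) and 193 of the 378 other pairs of hairpins (51.1%) differed, with a median size of 0.50 for the latter.

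The sharpest steps surrounded Mir134 and Mir668. Mir382, which precedes Mir134, with 3415 and 4136 counts, was at -0.0055 on the log2 scale (-0.071 to 0.060). Mir134 lay 1.52 above it (1.15 to 1.91; Fisher's exact test, adjusted p = 2.04e-16). Mir485, which follows Mir668, with 8121 and 8870 counts, was at 0.14, a step of -1.54 from Mir668 (-1.83 to -1.26; Fisher's exact test, adjusted p = 5.71e-29). Mir134 and Mir668 differed by 0.16 (-0.31 to 0.63; Fisher's exact test, adjusted p = 0.632). Mir539 stood apart in the same way, 1.22 above Mir487b before it (0.88 to 1.55) and 1.01 above Mir382 after it (of the step down -1.33 to -0.70).

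A single hairpin thus could differ from both of its neighbours. Mir666 lay 0.99 above Mir494 (0.29 to 1.69) and 0.74 above Mir543 (of the step down -1.21 to -0.28). Near the end of the cluster Mir369, at -0.55, lay below Mir412 at 0.15 and Mir410 at 0.067 (Fisher's exact test, adjusted p = 0.00672 and 0.00498). At the start, by contrast, Mir379 (-0.13), Mir411 (-0.25), Mir380 (-0.38) and Mir323 (-0.23) had ratios whose steps did not pass the test, with adjusted p from 0.361 to 0.49.

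Across the 34 members with at least 30 counts, the rank correlation of the log2 ratio with the order along the cluster was 0.19 (Spearman) and the linear one 0.21 (Pearson), and all points come from the same pair of libraries. The median was -0.13 for the 17 members of the 14 hairpins at the start of the cluster and 0.15 for the 17 members of the 15 hairpins that follow. Of all miRNAs with at least 30 counts, 40.4% had an interval above 0 and 22.8% below. Among the 17 members at the start 2 intervals lay above 0 and 5 below. Among the 17 members that follow 6 lay above 0 and 5 below. These counts describe the libraries, and the difference between the parts was not tested.

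In 13 hairpins both arms were counted. The same arm was the more abundant in both libraries in all 13, the 5p arm in 8 of them. The arms of Mir485 differed, with 0.21 for miR-485-5p and -0.15 for miR-485-3p (difference 0.36, interval 0.24 to 0.47; arm by library, Fisher's exact test, adjusted p = 6.2e-09 over the 13 pairs), so that the share of the 5p arm was 83.2% in the experimental library and 79.5% in the control library. For Mir323 the difference was 0.18 (0.060 to 0.31; Fisher's exact test, adjusted p = 0.0216), with a 5p share of 20.7% and 18.7%. These 2 pairs passed, and neither test depends on the scaling.

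For Mir380 the 5p arm was at 0.14 and the 3p arm at -0.52, a difference of 0.66 (0.073 to 1.24) that did not pass after adjustment (Fisher's exact test, adjusted p = 0.0939). Mir539 had both arms above 0, with 1.09 for the 5p arm and 0.59 for the 3p arm (35 and 28 counts, interval -0.17 to 1.36), and Mir369 had both below 0. In 10 of the 13 hairpins the log2 ratio of the 5p arm was the higher. Over single members the median was 0.14 for the 14 5p members (6 above 0, 2 below) and -0.19 for the 18 3p members (1 above 0, 8 below), and over the rest of the table, without the members, it was 0.17 for 114 5p miRNAs and 0.084 for 103 3p miRNAs. The difference between arms was not tested against the rest of the table.

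**Figure D3:**
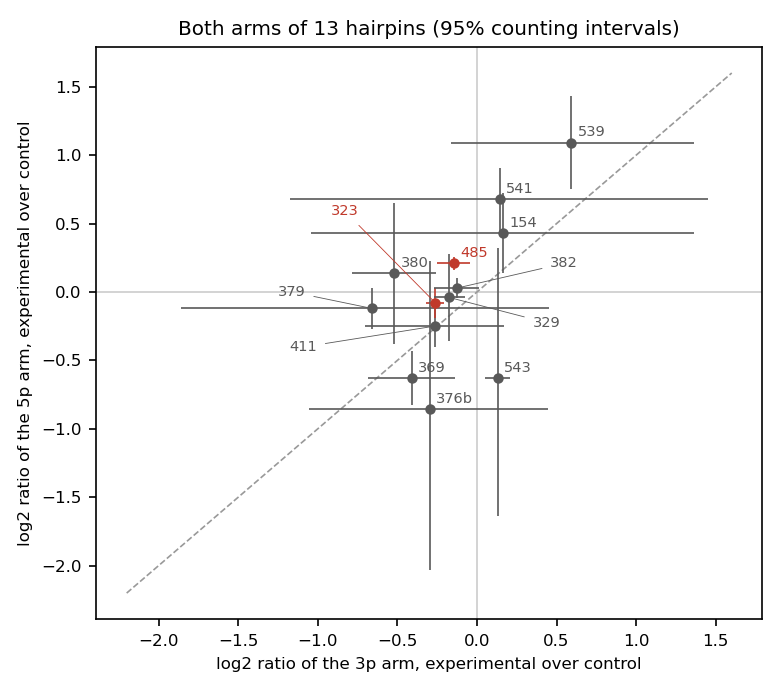
Log2 ratio of the 5p arm (vertical axis) against that of the 3p arm (horizontal axis) for the 13 hairpins with both arms, with 95% counting intervals and a dashed line of equal ratios. The 2 hairpins in red, Mir485 and Mir323, passed the test of arm by library, and 10 points lie above the dashed line.

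Members with related sequences were set side by side, with the shared stretch in capitals. The miR-376 members share UAGAGGAA, which 3 of the 42 members and 3 of all 693 mature rat miRNAs of the RefSeq table contain, read on the miRNA strand as in all these searches.
miR-376c-3p: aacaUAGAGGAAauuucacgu
miR-376b-3p: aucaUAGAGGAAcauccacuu
miR-376a-3p: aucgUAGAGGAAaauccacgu
Their log2 ratios were -0.45 (37 and 61 counts, interval -1.08 to 0.16), -0.30 (27 and 40 counts, interval -1.06 to 0.44) and -0.37, so that of these 3 only the abundant miR-376a-3p had an interval below 0. MiR-376a-3p and miR-376b-3p differ at 3 positions, and reads of such near-identical miRNAs may have been split by the authors' counting.

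The stretch GGUUGACC occurs in 4 of the 42 members and in 4 of the 693 miRNAs, at different distances from the 5′ end.
miR-134-5p: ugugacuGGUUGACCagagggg
miR-758-5p: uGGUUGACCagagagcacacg
miR-380-5p: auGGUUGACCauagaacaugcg
miR-154-3p: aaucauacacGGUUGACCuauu
MiR-134-5p and miR-758-5p share 13 consecutive bases, but these start at other positions, so that their seeds differ at 6 of the positions. MiR-134-5p was at 1.52, while the others gave -0.95 (miR-758-5p, 6 and 14 counts, interval -2.62 to 0.52), 0.14 (miR-380-5p, 63 and 69 counts, interval -0.38 to 0.65) and 0.16 (miR-154-3p, 13 and 14 counts, interval -1.04 to 1.36). The intervals of miR-758-5p and miR-380-5p lay below that of miR-134-5p.

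The letters ACACGG occur in 5 members and in 7 of the 693 miRNAs, which is 11.9% of the members and 1.01% of all. They are miR-323-3p, miR-485-3p, miR-411-3p, miR-494-3p and miR-154-3p, with log2 ratios of -0.26, -0.15, -0.26, -0.13 and 0.16. Of these only miR-323-3p and miR-485-3p had an interval without 0. MiR-543-3p and miR-495, which share 11 consecutive bases at the 3′ side, were at 0.13 and -0.051 (-0.15 to 0.044).

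Base composition and length both varied along with the ratios. Over the 34 members the log2 ratio and the GC content of the mature miRNA had a Spearman rho of 0.45 and a Pearson r of 0.44, and without miR-668 and miR-134-5p 0.36 and 0.27. With the length of the miRNA the values over the same 34 members were 0.41 and 0.39. Over the 202 other miRNAs of the table with a sequence and at least 30 counts the values for GC content were 0.16 and 0.19. These are descriptions across miRNAs of the same 2 libraries. GC content was 66.7% for miR-668, 59.1% for miR-134-5p and 70.0% for miR-666-5p, but 40.9% for miR-539-5p and 44.0% for miR-541-5p, and it ran from 23.8% to 54.5% in the 10 lower members. MiR-323-5p, with the highest GC content of the members at 72.7%, had a log2 ratio of -0.078 (1190 and 1516 counts, interval -0.19 to 0.032). The part of base composition or length in the ratios was not tested.

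**Figure D4:**
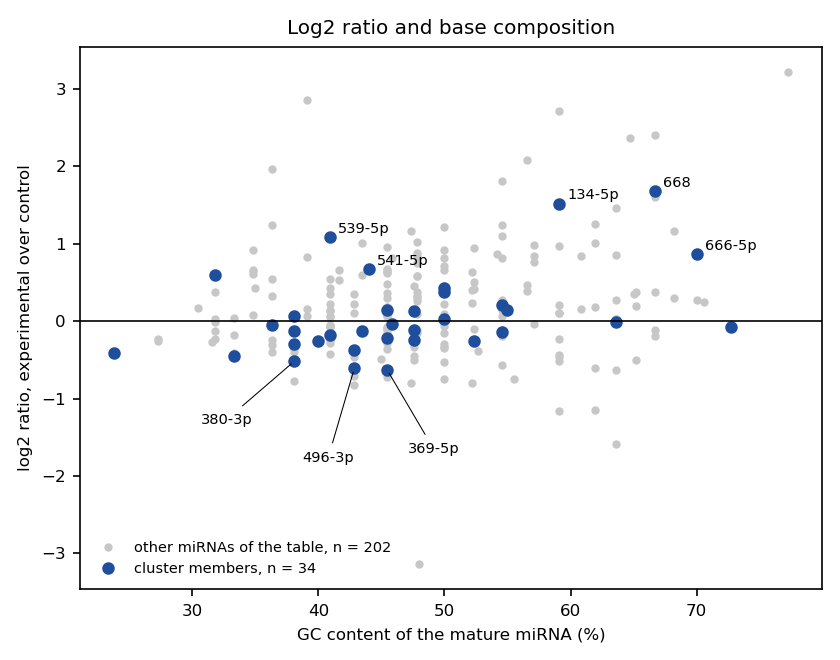
Log2 ratio of experimental over control against the GC content of the mature miRNA, for the 34 members with at least 30 counts (large points) and 202 other miRNAs of the table (small points). The members at high GC content include miR-668, miR-134-5p and miR-666-5p, while miR-539-5p and miR-541-5p lie above 0 at 40.9% and 44.0%.

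The rest of the Dlk1-Dio3 region was described from lists of names. The first list, called the antisense group here after the gene Rtl1, had arms of miR-127, miR-136, miR-337, miR-431, miR-433, miR-434, miR-493, miR-540 and miR-665. Whether each of these hairpins lies antisense to Rtl1 was not checked. Of this group 16 arms were in the table and 10 had at least 30 counts. These 10 had a median log2 ratio of 0.16, 5 intervals above 0 and 2 below, and a range from -0.36 to 0.76. Under every scaling 1 of them stayed above 0 and 2 below, against 5 and 10 of the 34 members of the miR-379 to miR-410 cluster. The other region miRNAs, both arms of miR-770, miR-341 and miR-1188-5p, had a median of 1.09, with all 4 intervals above 0, 3 of them under every scaling. For both lists, the shares of the table were 40.4% above 0 and 22.8% below with the clean reads. Under every scaling they were 23.2% and 22.8%. The sum of the antisense group was 2718 CPM in the experimental library and 2786 CPM in the control library, a log2 ratio of -0.035 that became 0.11 without its most abundant arm, miR-434-3p. No test of the difference between these groups was made.

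Cell type markers differed between the libraries as well, and their part in the results was not tested. Of 17 neuronal arms with at least 30 counts 7 had an interval above 0 and 4 below (median 0.18), against 40.4% and 22.8% of the table. The sums of all 18 arms given above differ by -0.25 on the log2 scale. That sign rested on miR-128-3p (-0.45), the most abundant arm. Without it the neuronal sums were 9247 CPM in the experimental library and 5655 CPM in the control library, 0.71 on the log2 scale. The largest part of these remaining sums was again a single arm, miR-124-3p, with 6957 CPM in the experimental and 3262 CPM in the control library (log2 ratio 1.09). The muscle sums also changed sign, from -0.11 to 0.057, without miR-1-3p. The 5 microglial and leukocyte arms had 2 above 0 and 0 below (median 0.039, summed 443 CPM in the experimental library and 362 in the control library). The log2 ratio of these sums was 0.29, and 0.060 without miR-21-5p, their most abundant arm. The 7 astrocyte and oligodendrocyte arms had 2 above 0 and 3 below (median -0.098, summed 1748 and 1805 CPM). The log2 ratio of their sums was -0.046, and -0.34 without their most abundant arm, miR-219-2-3p. Erythrocyte miRNAs summed to 30.9 CPM in the experimental library and 13.6 CPM in the control library over 3 arms, and the liver miRNA miR-122-5p was at 16.8 and 10.6 CPM. The lists also named miR-9 (neuron), miR-223 and miR-155 (microglia and leukocyte) and miR-486 (erythrocyte), of which no arm was in the table. These sums and counts cover only the arms that were in the table.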

How the data were processed

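Small RNA of the hippocampus was sequenced from 1 pool per group. The authors deposited whole-number read counts per miRNA, not scaled, made from reads left after low-quality, short and single-read sequences were discarded. The labels name the build rn5, and the aligner and miRBase release are not given in the sources used here. The 2 columns of deposited p-values hold the authors' own comparison and were not used.

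Counts were divided by the clean reads given in the paper. Counts under 3 are set to 3 before a ratio, which touched no member. Fisher's exact test (two-sided) was run on all 390 rows with Benjamini-Hochberg adjustment, and intervals are 95% exact Clopper-Pearson intervals. PCR reads are not independent molecules, so intervals and tests cover counting error only. Named were the 10 most abundant members, those with a log2 ratio beyond 1, the 5 highest and 5 lowest, arms that differed, and miR-134, miR-329, miR-381 and miR-485. Other members were named after their values were seen, to describe sequence families, neighbours and low counts. The members and lists were chosen with earlier results of these data known. The tests of pairs of hairpins, the sums without the most abundant arm, the stretches searched and the centring on the table's median were added after the values were seen. RefSeq (GRCr8) gave sequences, order and host genes, and no coordinates are given because the builds differ. Sequences were found for 297 of the 328 known miRNAs. The calculations were tested on counts simulated with counting error only. Without spread between pools, this checks how intervals and tests are computed, not how they hold between animals. The software was R 4.3.3 with edgeR 4.0.16 and DESeq2 1.42.0, and Python 3.11.15 with scipy 1.17.1, pandas 2.3.3, numpy 2.4.6 and matplotlib 3.10.9.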

Additional observations from a re-analysis of the deposited data

How the results depend on the processing

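No paired analysis was possible because there is a single pool per group, which also leaves no replicate to omit. Of the counts of members with an interval above or below 0 (8 and 10), unscaled copies gave 5 and 19, TMM 5 and 17, and edgeR's exact test at p under 0.05 gave 3 and 0 with an assumed coefficient of variation of 0.2 and 0 and 0 with 0.4. The sign reversed for miR-382-5p with the sums of the table (-0.0037), DESeq2's size factors (-0.063), TMM (-0.15), the table's median at 0 (-0.073, a centring chosen after seeing the data) and unscaled copies (-0.24), for miR-543-3p with unscaled copies (-0.14) and TMM (-0.050), and for miR-485-5p with unscaled copies (-0.061). These follow from the shift that each scaling gives to every ratio. As a share of the table's sums the cluster made up 0.524% of the experimental and 0.548% of the control library, and without let-7 2.98% and 3.13%. The members' median was below 0 under every alternative run, from -0.34 with unscaled copies to -0.031 with the arms of a hairpin summed. The members above 1 numbered 3, and 2 with TMM or unscaled copies. A minimum of 10 or 100 counts, or none, gave 8 and 10 again, which could not have come out otherwise. The intervals of all 8 members under 30 counts held 0, and each member counted had at least 104 counts in a library. Depth limits the 8 members under 30 counts.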
